A study of Mus musculus with 17 samples.

Results

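The comparison described here set the mammary glands of aromatase-overexpressing mice (AROM) against those of wild-type mice (WT), separately in the columns of the deposited FPKM table named as single-end and in those named as paired-end. FPKM, which divides the fragments of a gene by transcript length and by the mapped total, is a level per transcript length, so genes can be compared with each other. Genes were chosen by symbol and level: a locus had to carry 1 gene symbol of its own and reach at least 1 FPKM in 2 or more of the 4 AROM and WT columns. The 2 columns of 1 genotype were enough, so some genes passed only through the genotype in which they were higher. This left 11556 genes of 30843 loci. The 4 columns stand for 8 of the 17 libraries of the series, 2 single-end and 3 paired-end libraries of AROM and 2 single-end and 1 paired-end library of WT. Polyadenylated RNA of the whole gland was sequenced, and all mice were nulliparous C57Bl/6 females. AROM mice carried a CYP19A1 transgene behind a tetracycline operator (tet-op) together with MMTV-rtTA, a tetracycline-responsive transactivator driven by the promoter of the mouse mammary tumour virus, which is active chiefly in mammary epithelium. The WT label names no transgene, so the transactivator and the aromatase transgene cannot be told apart in this comparison. Ages, doxycycline treatment and the number of animals behind a library are not given in the labels. The series title names tamoxifen, an estrogen receptor modulator, and letrozole, an aromatase inhibitor, and no label says whether these mice received either, so treatment cannot be told apart from genotype here.

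Aromatase, the product of CYP19A1, is the enzyme that turns androgens into estrogens. In the mammary gland estrogen acts through estrogen receptor alpha in a subset of luminal cells, which release paracrine signals to their neighbours. Ductal and alveolar luminal cells form the milk-producing epithelium, myoepithelial cells surround them, and both lie in a stroma of adipocytes, fibroblasts, vessels and immune cells. Prolactin acting through Stat5 and the transcription factor Elf5 drives alveolar differentiation and the transcription of milk protein genes.

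Each genotype had 1 value per gene and layout. The differences below therefore carry no replicate error, no replicate check and no p-value. The label protocol states that libraries were sequenced by both methods, so the layouts may share libraries and are not independent repeats. In the WT columns 46.7% (single-end) and 43.3% (paired-end) of values carried repeating decimals, as means of 3 values do, although the labels give 2 and 1 WT libraries. In the 2 AROM columns this share was at most 0.0389%. At 1087 loci the paired-end WT value was more than 3 times the single-end one, and at 2775 loci the single-end value was more than 3 times the paired-end one, so at the first loci the single-end column cannot be a mean of 3 values that includes the paired-end value, and at the second the paired-end column cannot be one that includes the single-end value. Median FPKM over the genes analysed was 9.41 (single-end) and 7.85 (paired-end) in AROM, against 9.49 and 8.59 in WT. Over all loci the columns were less alike. The paired-end sum was 1.198e+08 FPKM in AROM, against 4.255e+06 in WT, and the single-end sum was 1.049e+06 against 960589. Unnamed loci held 99.5% of the paired-end sum in AROM and 88.8% in WT. The sequencing depth is unknown. A listed 0 may be a failed estimate, and 80 of the genes analysed were at 0 in at least 1 of the 4 columns. As a check on the tissue, the casein gene Csn2, the epithelial adhesion gene Epcam and the adipocyte gene Adipoq were all at 41.8 FPKM or more in each of the 4 columns. Because whole glands were used, fewer cells of a type and less RNA per cell cannot be told apart in any result below.

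The engineered gene could not be read from the table. The symbol Cyp19a1 stands for the mouse gene, and the label writes the transgene as the human one. Mouse Cyp19a1 was at 0.0591 FPKM (single-end) and 0.0502 FPKM (paired-end) in AROM, while it was listed at 0 in both WT columns and in the 4 columns of the other genotypes. Esr1, the gene of estrogen receptor alpha, was at 8.41 and 7.87 FPKM in AROM, against 7.27 and 6.89 FPKM in WT. Pgr, the progesterone receptor gene and a textbook estrogen target, was at 1.496 and 0.782 FPKM in AROM, against 1.92 and 1.90 FPKM in WT. On the scale of log2 FPKM + 1 used for all ratios below, Esr1 differed by 0.19 and 0.17 and Pgr by -0.23 and -0.70, both less than 2-fold. The other genotypes of the series are overexpressors of Esr1 (CERM) and Brca1-deficient mice (BRCA). In CERM Esr1 was at 8.49 and 8.41 FPKM. In BRCA Brca1 was at 3.28 and 3.29 FPKM, above the 1.13 and 0.851 FPKM of WT. Overexpression of Esr1 and loss of Brca1 could therefore not be read from these levels.

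The terms higher and lower are used of genes whose log2 ratio of FPKM + 1, AROM over WT, was at least 2-fold from equality. This scale understates the ratio of genes of low level. In the single-end columns 267 genes were higher in AROM (2.31% of those analysed) and 193 were lower (1.67%). In the paired-end columns 232 genes were higher (2.01%) and 337 were lower (2.92%). With the columns scaled by their median ratios the paired-end split turned to 331 higher and 292 lower. Only 45 genes (0.389%) were higher in both layouts, while 159 (1.38%) were lower in both and 8 (0.0692%) were called in opposite directions. With at least 1 FPKM required in all 4 columns, 32 genes were higher and 126 were lower in both layouts. With each AROM column set against the WT column of its own layout, lower genes held better between layouts than higher ones. Of the genes lower in the single-end columns, 82.4% were also lower in the paired-end ones. Of the genes lower in the paired-end columns, 47.2% were also lower in the single-end ones. Of the higher genes, 16.9% of the single-end list was also on the paired-end list, and 19.4% of the paired-end list was also on the single-end list.

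The layouts also differed within a genotype. Between its own single-end and paired-end columns AROM had 223 genes 2-fold apart (1.93%) and WT had 201 (1.74%). The robust SD over genes of the log2 difference between layouts was 0.28 in AROM and 0.14 in WT. Over the same genes the robust SD of AROM over WT was 0.27 in the single-end columns and 0.39 in the paired-end columns, so a typical gene differed between genotypes about as much as between the 2 AROM columns. When each AROM column was compared with each WT column, 32 genes were higher and 91 were lower in all 4 pairings. Set against the 45 higher and 159 lower in both layouts, the lower genes lost the larger share. This alternative was added after the values were seen. Near the threshold, the membrane trafficking gene Mal2 (-1.003 single-end and -1.16 paired-end on the log2 scale) lay just inside the group of genes lower in both layouts, and the T cell co-receptor gene Cd4 (-0.99 and -1.02) just outside it. Among the higher genes Lyve1, a marker of lymphatic vessels, lay just inside (1.43 and 1.00) and the matrix gene Tnxb just outside (1.10 and 0.99).

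**Figure D1:**
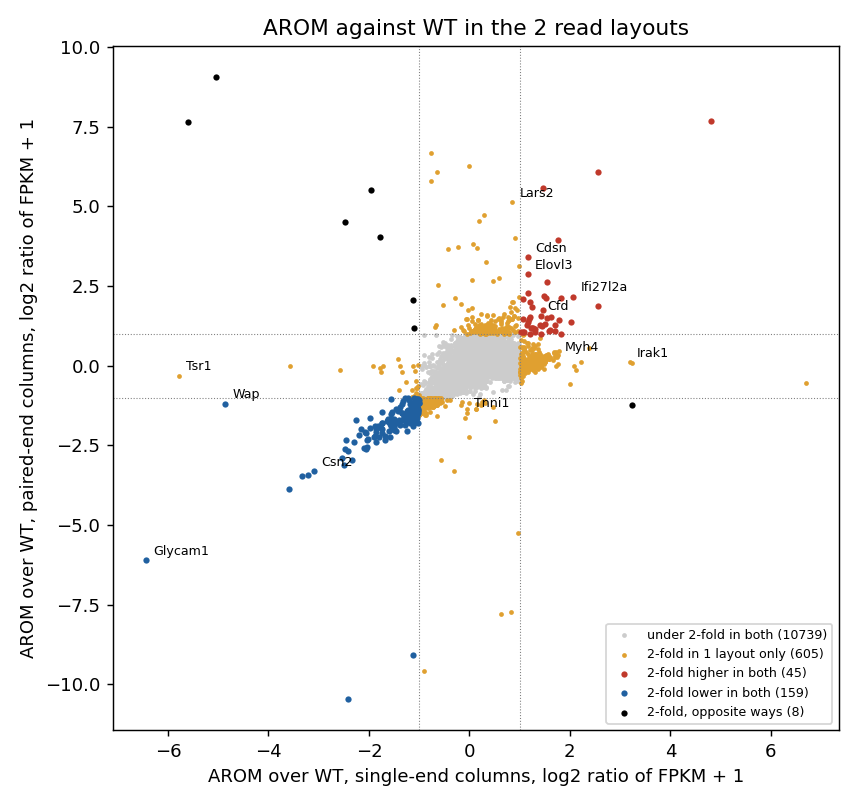
Log2 ratio of FPKM + 1, AROM over WT, of 11556 genes in the single-end columns (x axis) and the paired-end columns (y axis), 1 point per gene, with dotted lines at 2-fold. The 159 genes lower in both layouts run down to Glycam1, with Wap (-4.86 single-end and -1.20 paired-end) far from the diagonal. The genes called in 1 layout form a horizontal arm that holds muscle genes such as Myh4 and a vertical arm that holds genes such as Lars2.

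Milk protein genes were among the most strongly lower genes in both layouts. Of the 15 analysed genes of milk proteins and secretion, 10 were lower in AROM in the single-end columns and 10 in the paired-end columns, 8 of them in both, with a median log2 ratio of -1.18 (single-end) and -1.55 (paired-end). The median over all genes analysed was 0.00 and -0.08. Csn2, which encodes beta casein, was at 764 FPKM (single-end) and 486 FPKM (paired-end) in AROM, against 6520.2 and 4832 FPKM in WT, a log2 ratio of -3.09 and -3.31. Csn1s2a, an alpha casein gene, was at 554 and 367 FPKM in AROM, against 5103 and 3994 FPKM in WT. Csn1s1, another alpha casein gene, was at 630 and 405 FPKM in AROM, against 3647 and 2998 FPKM in WT. In all 3 genes both AROM columns lay below both WT columns. Csn3, the kappa casein gene whose product stabilises the casein micelle, was at 160 and 88.7 FPKM in AROM, against 811 and 691 FPKM in WT.

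The largest log2 ratio among the genes lower in both layouts and above 0 in all 4 columns was that of Glycam1, which encodes a mucin-like glycoprotein made by mammary epithelium and by high endothelial venules of lymph nodes. It was at 4.99 and 5.50 FPKM in AROM, against 518 and 450 FPKM in WT, a log2 ratio of -6.44 and -6.12. Spp1, the osteopontin gene, was lower in both layouts, with 86.7 and 68.0 FPKM in AROM against 322 and 315 FPKM in WT. Cel, the gene of the bile salt-stimulated lipase of milk, was lower in both as well (-1.18 and -1.79). Other milk genes were not past 2-fold in both layouts. Lalba, whose product is the lactose synthase subunit alpha-lactalbumin, had ratios of -0.72 and -1.30, and Btn1a1, which encodes the butyrophilin of the milk fat globule, -0.88 and -1.55. Xdh (-0.13 and -0.21) and Mfge8 (-0.14 and -0.40), both of the milk fat globule membrane, were under 2-fold in both.

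Wap, the whey acidic protein gene, was lower in both layouts but by very different amounts. It was at 3.95 FPKM (single-end) and 57.1 FPKM (paired-end) in AROM, against 143 and 132 FPKM in WT, a log2 ratio of -4.86 and -1.20. The WT columns were close together and the AROM columns were not. Csn1s2b, a further alpha casein gene, was called in opposite directions: it was at 0.183 and 4.19 FPKM in AROM, against 1.54 and 1.27 FPKM in WT, so it was lower in AROM in the single-end columns and higher in the paired-end ones. Among the milk genes these were the ones with the widest gap between layouts.

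The promoters of the milk genes lower in both layouts were read because the prolactin pathway acts on such genes through Stat5, whose family binds palindromes of the form TTCNNNGAA. Of the 9 analysed milk genes with a promoter in the RefSeq table (build GRCm38.p6, a later build than the mm9 of the files), 6 were lower in both layouts. Among these 6, Csn1s2a, Wap and Cel held no such motif in the 250 bases before the transcription start. The other 3 held it and were the only ones of the 9 to do so. They were Csn1s1 (chr5:87665958-87666207, plus strand), Csn2 (chr5:87699426-87699675, minus strand) and Glycam1 (chr15:103565082-103565331, minus strand), with the motif beginning 100, 93 and 145 bases before the start. The sequences run 5′ to 3′ on the gene's strand, with the motif in capitals.
Csn1s1: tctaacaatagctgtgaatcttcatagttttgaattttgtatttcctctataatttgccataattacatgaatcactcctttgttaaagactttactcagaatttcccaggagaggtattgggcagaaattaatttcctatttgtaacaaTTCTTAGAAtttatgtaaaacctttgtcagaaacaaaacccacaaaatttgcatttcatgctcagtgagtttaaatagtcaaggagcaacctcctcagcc
Csn2: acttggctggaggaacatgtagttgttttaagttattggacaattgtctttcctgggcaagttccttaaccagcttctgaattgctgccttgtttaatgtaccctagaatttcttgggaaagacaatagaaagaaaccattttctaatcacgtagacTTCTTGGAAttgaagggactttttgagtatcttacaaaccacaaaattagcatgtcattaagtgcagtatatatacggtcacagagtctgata
Glycam1: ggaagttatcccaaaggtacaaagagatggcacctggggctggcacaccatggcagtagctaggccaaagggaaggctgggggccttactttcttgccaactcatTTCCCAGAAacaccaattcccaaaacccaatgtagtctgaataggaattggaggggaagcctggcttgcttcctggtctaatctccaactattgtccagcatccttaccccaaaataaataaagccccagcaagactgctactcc
The motif reads the same on both strands. It was present in 7.23% of all 22862 promoters of the table and in 6.08% of the 6464 promoters of genes analysed. Of the promoters of genes lower in both layouts it was in 12 of 81 (14.8%), and of those of genes higher in both it was in 0 of 24. The 12 include the 3 milk genes shown above. Only 81 of the 159 lower genes and 24 of the 45 higher ones had a promoter there, and the difference between these shares was not tested. The estrogen response element, the half-site GGTCA followed after any 3 bases by its reverse complement TGACC, was in 14 of the 22862 promoters (0.0612%) and in none of the 6464 promoters of genes analysed. A match of letters is a description of the window and not a binding site.

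Some regulators of alveolar differentiation were lower as well. Of 12 analysed, 6 were under 2-fold in both layouts, 5 were lower in the single-end columns and 5 in the paired-end columns, 4 of them in both, and none was higher. Elf5, the transcription factor of alveolar fate, was at 39.0 and 21.1 FPKM in AROM, against 108 and 90.0 FPKM in WT, a log2 ratio of -1.45 and -2.04. Tnfsf11, which encodes RANK ligand, the paracrine signal that progesterone induces in luminal cells, was at 4.83 and 2.51 FPKM in AROM, against 15.4 and 13.2 FPKM in WT. Both AROM columns were below both WT columns in these genes. The gene of its receptor, Tnfrsf11a, was lower in both layouts (-1.01 and -1.07), and so was Id2, an inhibitor of helix-loop-helix factors needed for alveolar growth (-1.06 and -1.53). Gata3, a luminal transcription factor, was under 2-fold in the single-end columns (-0.93) and lower in the paired-end ones (-1.37). The genes of the prolactin pathway itself were under 2-fold in both layouts, with ratios of -0.14 and -0.47 for the receptor gene Prlr, -0.53 and -0.58 for Stat5a and 0.05 and -0.29 for Stat5b. Cish, a Stat5 target that restrains cytokine signalling, sat at the threshold, with -1.001 in the single-end columns, where it was called, and -0.93 in the paired-end ones, where it was not.

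Genes of hormone reception and response lay mostly below WT. Of 14 analysed, 10 had a ratio below 0 and 4 above 0 in each layout, with medians of -0.18 and -0.42. Against the WT column of the other layout the single-end median was 0.03. None was higher in either layout, and 3 were lower in both. They were Tnfsf11, Myc and Calca. Myc, the growth-promoting transcription factor, was at 19.1 and 11.8 FPKM in AROM, against 41.9 and 37.6 FPKM in WT. Calca, the calcitonin gene, which progesterone induces in the mammary gland, was at 65.3 and 34.3 FPKM in AROM, against 222 and 135 FPKM in WT. Areg, which encodes amphiregulin, the epidermal growth factor family ligand that carries the estrogen signal in ductal growth, was lower in the paired-end columns only (-0.38 and -1.08). Foxa1, a cofactor of the estrogen receptor, stayed under 2-fold (-0.03 and -0.37), as did Ctsd, a cathepsin gene known as an estrogen target in breast cancer cells, whose ratios had unlike signs (-0.38 and 0.50). Among 11 analysed genes of steroid metabolism Cyp1b1 alone was past 2-fold: this gene of an estrogen-hydroxylating enzyme was at 10.54 and 6.28 FPKM in AROM, against 28.3 and 19.5 FPKM in WT. Hsd11b1, which regenerates active glucocorticoid, had ratios of unlike sign, both under 2-fold (-0.49 and 0.71).

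**Figure D2:**
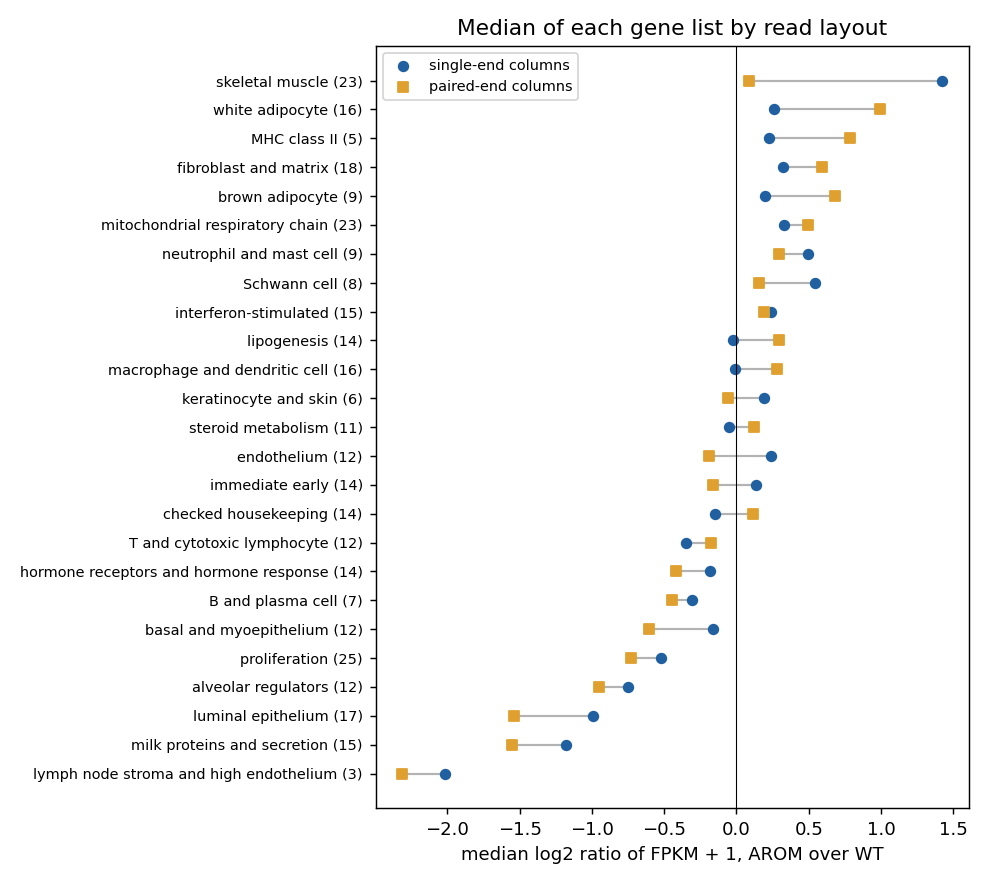
Median log2 ratio of FPKM + 1, AROM over WT, of 25 gene lists in the single-end columns (circles) and the paired-end columns (squares), with the number of genes analysed in brackets. Milk, luminal and alveolar lists lie left of 0 in both layouts, whereas the skeletal muscle median is 1.42 in the single-end columns and 0.09 in the paired-end ones, and the white adipocyte median is 0.26 and 0.99.

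Many luminal epithelial genes were lower in both layouts. Of 17 analysed, 5 were under 2-fold in both, 8 were lower in the single-end columns and 12 in the paired-end columns, with the same 8 in both, none was higher, and the median log2 ratio was -0.99 and -1.54. Cdh1, the E-cadherin gene, was at 22.6 and 13.2 FPKM in AROM, against 55.4 and 45.0 FPKM in WT. Cd24a, a surface glycoprotein gene used to sort luminal cells, was at 98.7 and 53.4 FPKM in AROM, against 222 and 180 FPKM in WT. Krt8, a keratin gene of luminal cells, missed the threshold in the single-end columns, with 111 and 63.4 FPKM in AROM against 212 and 168 FPKM in WT (-0.93 and -1.40). Each of these genes had both AROM columns below both WT columns. Summed over the 17 genes, FPKM was 819 (single-end) and 483 (paired-end) in AROM, against 1456 and 1163 in WT. The part of this difference in the lower milk and alveolar genes was not tested. Wfdc2, a secreted protease inhibitor gene, was above WT in both layouts, by less than 2-fold (0.34 and 0.39).

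Basal and myoepithelial genes were shifted less. Of 12 analysed, none was past 2-fold in the single-end columns and 2 were lower in the paired-end columns, with a median of -0.16 and -0.60. The 2 genes were Krt15, a basal keratin gene (-0.49 and -1.26), and Itga6, the gene of an integrin that binds laminin (-0.98 and -1.26). Acta2, the smooth muscle actin gene that marks myoepithelium, was at 203 and 122 FPKM in AROM, against 260 and 198 FPKM in WT. Oxtr, the oxytocin receptor gene through which milk is let down, was slightly above WT in both (0.31 and 0.20).

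Several epithelial gene families were lower as sets or in part, and they were picked out after the values had been seen. Of 6 analysed connexins, the subunits of gap junctions, Gjb2 and Gjb6 were lower in both layouts and the other 4 were under 2-fold in both. Gjb6 was at 2.48 and 1.36 FPKM in AROM, against 40.8 and 33.9 FPKM in WT, and Gjb2 at 11.98 and 6.41 FPKM in AROM, against 72.3 and 62.8 FPKM in WT. Gja1, the widely expressed connexin gene, was at 43.7 and 45.1 FPKM in AROM, against 49.4 and 52.1 FPKM in WT. Of 11 analysed claudins, the sealing proteins of tight junctions, Cldn3, Cldn7 and Cldn8 were lower in both. The widest claudin difference was in Cldn8, with 6.31 and 3.06 FPKM in AROM against 22.3 and 17.9 FPKM in WT. All 4 genes of the matriptase system were lower in both, namely the membrane protease gene St14, its activating partner Prss8 and the inhibitor genes Spint1 and Spint2. Both epithelial splicing regulators, Esrp1 and Esrp2, and the epithelial transcription factor gene Grhl1 were lower in both, as were 3 of 5 Iroquois homeobox genes (Irx1, Irx2 and Irx3). Of 11 keratins, 5 were lower in the paired-end columns and none in the single-end ones.

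Solute carriers, membrane transporters of nutrients and ions, were mostly under 2-fold in both layouts, 171 of 188 analysed, as were most of all genes analysed. Of the rest, 9 were lower in both layouts and 1 was higher in both, beside 1.38% and 0.389% of all genes analysed. The lower ones included Slc15a2, a peptide transporter gene, at 5.05 and 3.15 FPKM in AROM against 21.1 and 16.5 FPKM in WT. They also included the zinc importer gene Slc39a4 (-1.64 and -1.74) and the sodium-phosphate cotransporter gene Slc34a2 (-1.57 and -1.68). The higher one was Slc6a13, a transporter gene of the inhibitory transmitter GABA, at 6.77 and 10.2 FPKM in AROM, against 2.71 and 1.63 FPKM in WT. B4galt1, whose product joins alpha-lactalbumin in lactose synthesis, was lower in both layouts, with 22.2 and 18.7 FPKM in AROM against 48.9 and 42.6 FPKM in WT.

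The remaining genes with the largest ratios among those lower in both layouts had varied roles. Pigr, the receptor gene that carries immunoglobulin A across epithelium into milk, was at 1.24 and 0.721 FPKM in AROM, against 21.5 and 18.2 FPKM in WT. Sftpd, a collectin gene of innate defence, was at 0.649 and 0.426 FPKM in AROM, against 7.74 and 8.15 FPKM in WT. Ubd, a ubiquitin-like modifier gene, was at 12.5 and 9.23 FPKM in AROM, against 61.3 and 44.8 FPKM in WT. All 3 genes had both AROM columns below both WT columns. Cited4, a transcriptional coregulator gene (-2.09 and -2.59), Wfdc3, a whey acidic protein family gene (-2.29 and -2.41), Car6, a secreted carbonic anhydrase gene (-2.08 and -2.08), and Rgs16, a regulator gene of G protein signalling (-2.07 and -2.10), were also at least 4-fold lower in both. Past 4-fold in both layouts there were 22 lower genes and 3 higher ones, of which 18 and 1 were neither small RNAs, unidentified symbols nor listed at 0.

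**Figure D3:**
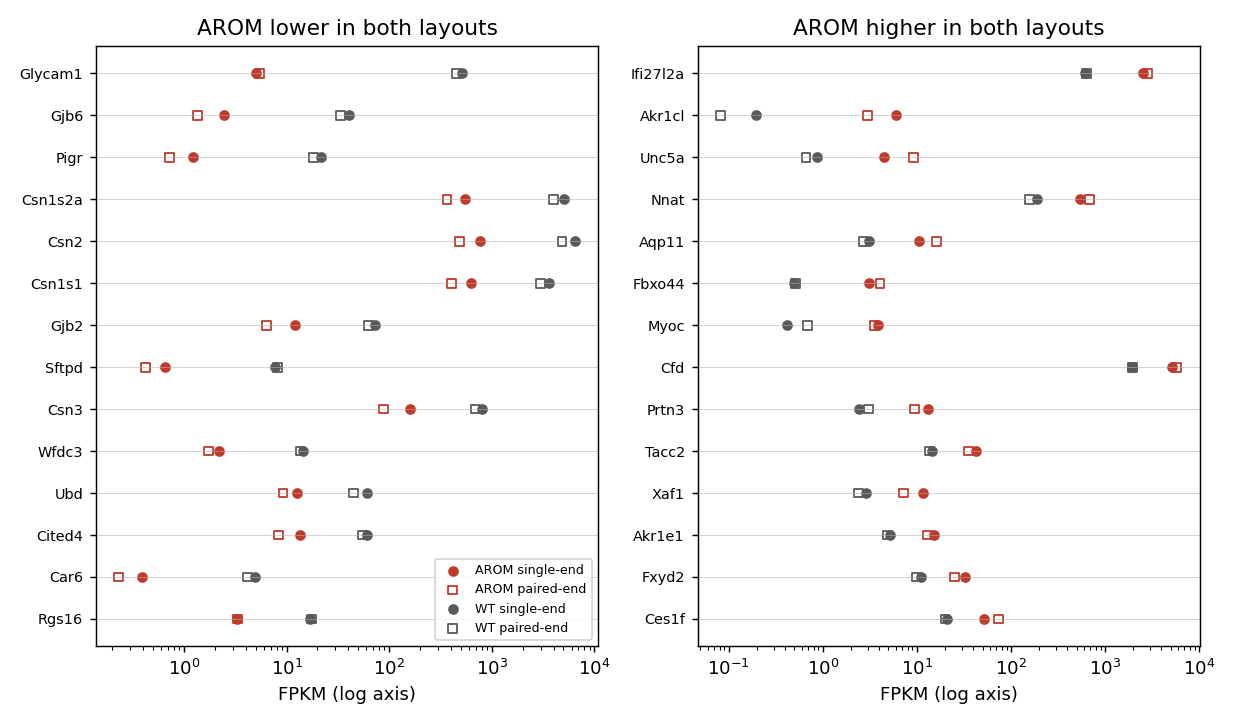
FPKM on a log axis of the 14 genes lower in AROM in both layouts (left) and the 14 higher (right) with the largest smaller ratio of the 2 layouts, AROM in red and WT in grey, single-end columns as filled circles and paired-end columns as open squares. In each gene the 2 AROM values lie on the same side of the 2 WT values, and Glycam1 has the widest gap.

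Proliferation genes were mostly below WT by less than 2-fold. Of 25 analysed, 24 had a ratio below 0 in the single-end columns and 25 in the paired-end columns, with a median of -0.52 and -0.73. None was past 2-fold in the single-end columns and 4 were lower in the paired-end ones. Mki67, the gene of the proliferation marker Ki-67, was at 3.78 and 2.11 FPKM in AROM, against 6.86 and 5.65 FPKM in WT (-0.72 and -1.10). Ccnb2, a mitotic cyclin gene, was at 3.24 and 1.79 FPKM in AROM, against 6.50 and 5.93 FPKM in WT. The ratios of some DNA replication genes were nearer to 0, such as -0.03 and -0.27 for Mcm3, a helicase subunit gene, and -0.01 and -0.26 for Pcna, the sliding clamp gene. The levels are low, and the luminal genes named above lay below WT in the same columns; their part in these ratios was not tested.

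The genes higher in AROM in both layouts were few, and 12 of the 45 were small RNAs, symbols without a known identity or genes listed at 0. Ifi27l2a, an interferon-inducible gene, was at 2555 and 2839 FPKM in AROM, against 609 and 632 FPKM in WT, a log2 ratio of 2.07 and 2.17. Of 15 analysed interferon-stimulated genes, 2 were higher in both layouts, Ifi27l2a and the apoptosis-linked Xaf1, which was at 11.7 and 7.20 FPKM in AROM against 2.89 and 2.39 FPKM in WT. Isg15, a ubiquitin-like interferon response gene, was under 2-fold in both (0.36 and 0.73). The median of the list was 0.24 and 0.19, and the paired-end value was 0.33 under quantile normalization.

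Cfd, the adipocyte gene of adipsin, a protease of the alternative complement pathway, was at 5198 and 5829 FPKM in AROM, against 1947 and 1961 FPKM in WT. Nnat, an imprinted gene of a membrane proteolipid found in brain and fat, was at 548 and 692 FPKM in AROM, against 190 and 158 FPKM in WT. Sncg, the gamma-synuclein gene expressed in adipocytes, and Rarres2, the gene of the adipokine chemerin, were also higher in both, with ratios of 1.06 and 1.476 for Sncg and 1.21 and 2.01 for Rarres2. Each of these 4 genes had both AROM columns above both WT columns. Gpx3, the plasma glutathione peroxidase gene, was at 826 and 937 FPKM in AROM, against 407 and 451 FPKM in WT.

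Further genes higher in both layouts had other roles. Aqp11, an intracellular aquaporin gene, was at 10.47 and 16.1 FPKM in AROM, against 3.11 and 2.73 FPKM in WT. Akr1cl, an aldo-keto reductase gene, was at 6.07 and 3.01 FPKM in AROM, against 0.194 and 0.0816 FPKM in WT. Unc5a, a netrin receptor gene, was at 4.45 and 9.31 FPKM in AROM, against 0.859 and 0.664 FPKM in WT. Prtn3, a neutrophil serine protease gene, was at 13.1 and 9.53 FPKM in AROM, against 2.46 and 3.04 FPKM in WT. The neutrophil genes S100a8 (0.14 and 0.29) and S100a9 (0.65 and 0.94) were under 2-fold in both layouts. Of 4 thrombospondin genes, which encode matrix glycoproteins, Thbs2 and Thbs4 were higher in both, and of 6 Cd209 lectin genes, pathogen receptors of macrophages and dendritic cells, Cd209b and Cd209d were. Thbs2 was at 19.2 and 16.1 FPKM in AROM, against 8.07 and 6.02 FPKM in WT, and Cd209d at 26.0 and 18.4 FPKM in AROM, against 9.89 and 7.74 FPKM in WT.

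Skeletal muscle genes were the clearest failure between layouts. Of 23 analysed, 20 were higher in AROM in the single-end columns with a median log2 ratio of 1.42, whereas none was higher and 3 were lower in the paired-end columns with a median of 0.09. None was called the same way in both. Against the WT column of the other layout the medians were 0.74 with the single-end AROM column and 0.78 with the paired-end one. Myh4, the gene of a fast myosin heavy chain, was at 1304 FPKM (single-end) and 818 FPKM (paired-end) in AROM, against 387 and 675 FPKM in WT. Ckm, the muscle creatine kinase gene, was at 5292 and 3590 FPKM in AROM, against 1766 and 3081 FPKM in WT. Acta1, the skeletal actin gene, was at 7966 and 5598 FPKM in AROM, against 3249.5 and 5661 FPKM in WT. Summed over the list, FPKM was 52465 and 33584 in AROM, against 18654 and 30198 in WT. The single-end column was the higher one in AROM and the lower one in WT. These levels show muscle RNA in every column; its part in the other results was not tested.

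Genes of fast and slow muscle fibres kept their distance from each other in both layouts. The 3 slow-fibre troponin genes were under 2-fold in the single-end columns and were the 3 muscle genes called lower in the paired-end ones. Tnni1, the slow troponin I gene, was at 66.1 and 40.3 FPKM in AROM, against 68.1 and 114 FPKM in WT. Its fast counterpart Tnni2 was at 4911 and 3014 FPKM in AROM, against 1653 and 2409 FPKM in WT. The ratio of fast to slow FPKM was therefore 74.3 and 74.7 in AROM, against 24.3 and 21.1 in WT. For troponin C, Tnnc2 over Tnnc1, it was 37.6 and 38.4 in AROM, against 14.5 and 13.96 in WT, and for troponin T, Tnnt3 over Tnnt1, 40.2 and 43.5 in AROM, against 18.1 and 17.8 in WT. In AROM and in WT the 2 columns were close in this ratio although the level of muscle RNA was not. In CERM and BRCA the ratios lay between those of AROM and WT for each troponin in both layouts. The 2 CERM columns were further apart, at 19.4 and 26.9 for troponin C, 39.2 and 46.1 for troponin I, and 27.7 and 37.6 for troponin T. Of 6 analysed slow-fibre contractile genes, a set chosen after the values were seen, none was past 2-fold in the single-end columns and 6 were lower in the paired-end ones, with a median of 0.25 and -1.18.

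**Figure D4:**
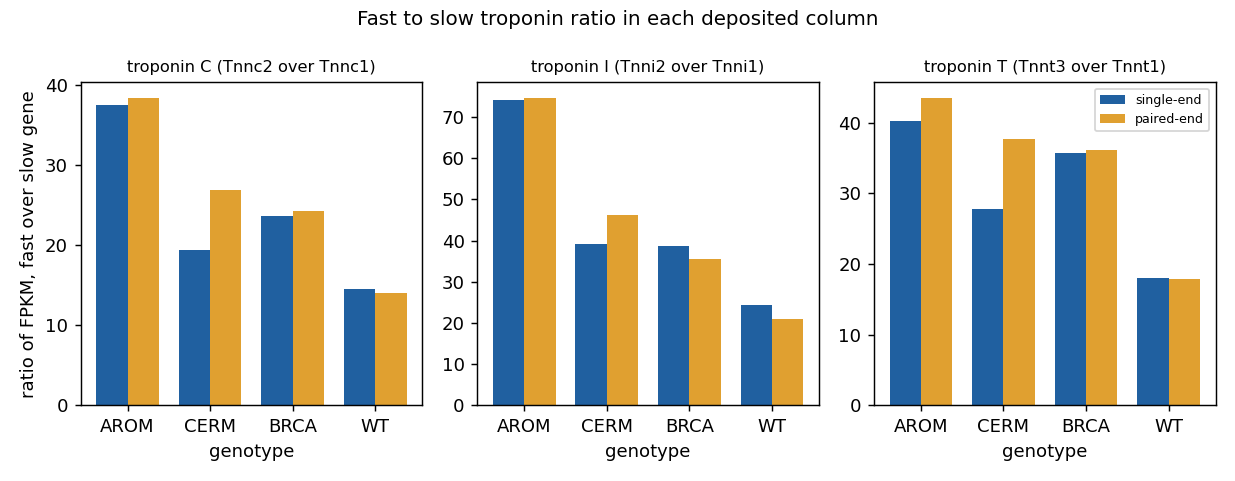
Ratio of fast to slow troponin FPKM for troponin C, I and T in the columns of AROM, CERM, BRCA and WT, with single-end columns in blue and paired-end columns in orange. AROM has the highest bar and WT the lowest in each panel, and for troponin I the AROM bars stand at 74.3 and 74.7 against 24.3 and 21.1 in WT.

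White adipocyte genes showed the reverse pattern, with a larger difference in the paired-end columns. Of 16 analysed, 1 was higher in the single-end columns and 8 in the paired-end ones, none was lower, and the median was 0.26 and 0.99. Under quantile normalization the medians were 0.11 and 0.76. Cfd was the one gene higher in both. Adipoq, the adiponectin gene, was at 1384 FPKM (single-end) and 1885 FPKM (paired-end) in AROM, against 1069 and 789 FPKM in WT. Cidec, a lipid droplet protein gene, was at 636 and 1318 FPKM in AROM, against 542 and 429 FPKM in WT. Lep, the leptin gene, was at 91.0 and 115 FPKM in AROM, against 73.4 and 54.2 FPKM in WT. In these 3 genes the AROM columns were above the WT columns in both layouts, with the paired-end AROM column the highest and the paired-end WT column the lowest. Over the list, 15 of 16 genes were above 0 in the single-end columns and 16 in the paired-end ones, and the summed FPKM was 27149 and 33457 in AROM, against 18521 and 14477 in WT. Pparg, the master regulator gene of adipocytes, was under 2-fold in both (0.23 and 0.51).

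Genes of fatty acid synthesis showed no common direction, with medians of -0.03 and 0.30 (-0.18 and 0.20 under quantile normalization). Of 14 analysed, none was higher in the single-end columns and 1 was higher in the paired-end ones, Agpat2, an enzyme gene of triglyceride synthesis (0.08 and 1.08). Elovl6, an elongase gene, was lower in both layouts, at 67.5 and 63.6 FPKM in AROM, against 143 and 151 FPKM in WT. Scd1, the stearoyl-CoA desaturase gene, had ratios of unlike sign, both under 2-fold (-0.81 and 0.27): it was at 4314 and 7702 FPKM in AROM, against 7561 and 6383 FPKM in WT. Another elongase gene, Elovl3, known from brown fat and skin glands, was higher in both layouts, with 13.3 and 41.2 FPKM in AROM against 5.39 and 4.74 FPKM in WT. It was the only one of 9 analysed brown adipocyte genes past 2-fold in either layout. Ucp1, the uncoupling protein gene of brown fat, was at 421 and 739 FPKM in AROM, against 341 and 421 FPKM in WT. Genes of the mitochondrial respiratory chain lay above WT in 22 of 23 cases in each layout, with a median of 0.33 and 0.50 as deposited and of 0.22 and 0.20 under quantile normalization. Of these, only Cox6a2, the muscle isoform gene of a cytochrome oxidase subunit, was past 2-fold, in the single-end columns (1.16 and -0.13).

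**Figure D5:**
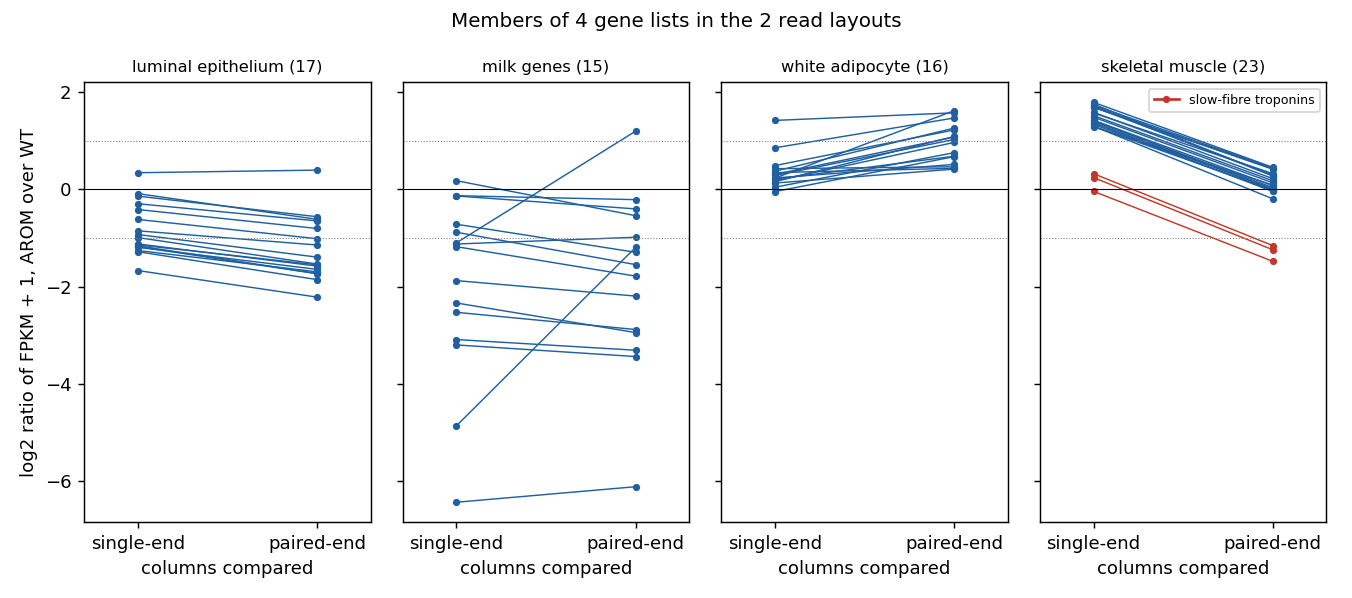
Log2 ratio of FPKM + 1, AROM over WT, of each analysed gene of 4 lists, with its single-end and paired-end values joined by a line and dotted lines at 2-fold. All luminal genes but Wfdc2 lie lower in the paired-end columns, Wap and Csn1s2b have the steepest lines among milk genes, adipocyte genes lie higher in the paired-end columns, and all 23 muscle genes lie lower there, with the slow-fibre troponin genes (red) lowest.

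Fibroblast and matrix genes had medians of 0.32 and 0.59. Of 18 analysed, 1 was higher in the single-end columns and 4 in the paired-end ones, and Thbs2 was the one shared. Col1a2, a fibrillar collagen gene, was at 116 and 110 FPKM in AROM, against 92.6 and 52.1 FPKM in WT. Col3a1, another fibrillar collagen gene, had ratios of 0.34 and 1.04. Of 12 endothelial genes Lyve1 was higher in both layouts, and the blood vessel gene Pecam1 was under 2-fold (0.23 and -0.14). The 16 macrophage and dendritic cell genes had medians of -0.01 and 0.28, with 7 above 0 in the single-end columns and 11 in the paired-end ones. Cd14, the lipopolysaccharide co-receptor gene, was lower in both (-1.05 and -1.28). Lyz2, the lysozyme gene of myeloid cells, was lower in the paired-end columns only (-0.97 and -1.33). None was higher, and Cd209a (0.96 and 0.71) and Mrc1 (0.60 and 0.64) lay above WT in both by less than 2-fold. The complement gene C1qa was at 117 and 118 FPKM in AROM, against 123 and 95.8 FPKM in WT. Of 5 MHC class II genes, which present antigen, 4 lay above WT in each layout, with medians of 0.23 and 0.78. H2-Aa was higher in the paired-end columns only (0.27 and 1.06), and H2-Eb1 alone lay below WT in both (-0.74 and -0.15).

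Of 12 T and cytotoxic lymphocyte genes 1 was lower in each layout and none in both: Cd3g, a T cell receptor complex gene, in the single-end columns (-1.06 and -0.86) and Cd4 in the paired-end ones (-0.99 and -1.02). Of 7 B and plasma cell genes only Pigr, which epithelium expresses, was past 2-fold. Igj, the joining chain gene of secreted immunoglobulins, was at 87.5 and 59.1 FPKM in AROM, against 100.4 and 81.8 FPKM in WT. Of 3 analysed genes of lymph node stroma and high endothelium, Glycam1 and Madcam1, an adhesion molecule gene of mucosal venules, were lower in both layouts. Madcam1 was at 1.77 and 0.827 FPKM in AROM, against 10.2 and 8.06 FPKM in WT. The chemokine gene Cxcl13, which marks lymphoid follicles, was at 3.01 and 2.36 FPKM in AROM, against 2.59 and 1.56 FPKM in WT. The part of lymph node tissue in the Glycam1 difference was not tested.

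Schwann cell genes had a median of 0.54 in the single-end columns and 0.16 in the paired-end ones. Of 8 analysed, 2 were higher in the single-end columns and none in the paired-end ones. Prx, the periaxin gene of myelinating Schwann cells, was 1 of these, at 7.65 and 4.68 FPKM in AROM, against 3.28 and 3.84 FPKM in WT. Sox10, a transcription factor gene of Schwann cells that mammary epithelium also expresses, had ratios of -0.99 and -1.51. Of 14 immediate early genes, which respond to handling of tissue, none was past 2-fold in either layout, with medians of 0.13 and -0.16 (-0.04 paired-end under quantile normalization). Of 6 keratinocyte genes, Cdsn, the corneodesmosin gene of cornified skin, was higher in both, with 10.8 and 60.9 FPKM in AROM against 4.23 and 4.81 FPKM in WT. The keratin gene Krt77 was lower in the paired-end columns only (-0.64 and -1.57), and Krtdap had ratios of unlike sign, both under 2-fold (0.34 and -0.71). The median of these 6 genes was 0.19 and -0.06, and the paired-end value became 0.04 under median-ratio scaling. Among 14 genes in wide use as references 1 was past 2-fold, Gapdh, a glycolytic enzyme gene, in the paired-end columns only (0.78 and 1.01). It was at 447 and 1592 FPKM in AROM, against 259.8 and 792 FPKM in WT.

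Genes called in 1 layout alone included some with a single column far from the rest. In the single-end columns 221 genes were higher without being called in the paired-end ones, and 27 were lower. Irak1, a kinase gene of interleukin receptor signalling, was at 217 and 23.1 FPKM in AROM, against 22.9 and 21.5 FPKM in WT, so 1 AROM value stood apart from 3 like ones. Tsr1, a ribosome maturation gene, was at 9.80 and 4.64 FPKM in AROM, against 592 and 6.02 FPKM in WT, where the single-end WT value stood apart. In the paired-end columns 180 genes were higher without being called in the single-end ones, and 177 were lower. Lars2, the mitochondrial leucyl-tRNA synthetase gene, was at 122 and 1443 FPKM in AROM, against 67.4 and 40.0 FPKM in WT. Tpt1, a widely expressed growth-related gene, was at 13.0 and 435 FPKM in AROM, against 11.8 and 1107 FPKM in WT, so it differed between layouts in both genotypes.

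The genes called in both layouts were also ranked over all 4 genotypes of the series. Of the 159 genes lower in both layouts, AROM was the lowest of the 4 genotypes in both layouts for 135, and WT was the highest in both for 86. Of the 45 genes higher in both layouts, AROM was the highest of the 4 in both layouts for 20, and WT was the lowest in both for 27. Nnat was highest in AROM in both layouts, with 548 and 692 FPKM in AROM, while it was at 287 and 402 FPKM in CERM and 190 and 158 FPKM in WT. Xaf1 was highest in BRCA, at 32.3 and 27.9 FPKM. These ranks share the AROM and WT columns with the calls and are given as a description.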

How the data were processed

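FPKM values were computed by the authors and deposited in 1 table, with 1 column per genotype and read layout. The tools named, per the submitters' processing notes, are Trim Galore, FastQC, TopHat (spliced alignment) and Cufflinks (FPKM estimates), with build mm9. Tool versions and the way libraries were combined into columns are not given in these sources. The table held 30843 loci, of which 8119 were unnamed, 585 carried several symbols and 1719 carried a symbol used by more than 1 locus. The other 20420 were filtered to those at 1 FPKM or more in at least 2 of the 4 AROM and WT columns. Genes of overlapping loci or with near-identical copies may share reads, and the strand setting of the quantification is not given.

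Values were used as deposited. The log2 ratio of FPKM + 1, AROM over WT, was computed within each layout, and a gene was called at 2-fold. With 1 pooled value per group there was no test, and depth and counting error are unknown. The calling steps were run on simulated data with known ratios, which checks the steps and not the calls in these data. Alternatives were other pseudocounts, filters, thresholds and scalings, loci with several symbols, and the WT column of the other layout. Versions were Python 3.11.15, pandas 2.3.3, numpy 2.4.6 and matplotlib 3.10.9.

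The comparison, the gene lists and the rules were chosen with earlier results of these data known, so no list is independent evidence. Named genes were the targeted genes with Esr1 and Pgr, the 14 higher and 14 lower genes with the largest smaller-of-2 ratio in both layouts, those called in opposite directions, the 5 per layout and direction with the widest gap among genes called in 1 layout, and up to 6 members per list by mean ratio plus up to 3 by gap. Genes listed at 0 and unidentified or small RNA symbols were not ranked. Other named genes, the 13 gene families and the comparison of fast and slow troponin genes were chosen after their values were seen. A few results on single genes are left out. Motifs were counted in RefSeq promoters of GRCm38.p6, matched by symbol.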

Additional observations from a re-analysis of the deposited data

Results flagged for a closer look

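In 8 genes the AROM over WT ratio was past 2-fold in opposite directions in the 2 layouts, with 1 value per group, so the difference between layouts was not tested. Csn1s2b, an alpha casein gene, had a log2 ratio of -1.10 in the single-end columns and 1.19 in the paired-end ones. It was the only one of the 8 above 0 in all 4 columns. Foxo3, a forkhead transcription factor gene, had 3.24 and -1.22, with 8.46 FPKM (single-end) and 4.61 FPKM (paired-end) in AROM, against a listed 0 and 12.1 FPKM in WT. The other 6 were small RNA genes listed at 0 in at least 1 column, with ratios that depend on the pseudocount. Their single-end log2 ratios were -5.61 for Mir1943, -5.04 for Mir5109, -2.48 for Mir7-1, -1.96 for Mir3471-1, -1.77 for Snord15b and -1.11 for Snora3, and each was positive in the paired-end columns.

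Loci without a gene name lay outside the comparison. They held 99.5% of the summed FPKM of the paired-end AROM column and 88.8% of that of the paired-end WT column. Of 8119, 1260 passed the same filter, and 59 of these (4.68%) were higher in AROM in both layouts while 70 (5.56%) were lower in both and 28 (2.22%) were called in opposite directions. The locus with the identifier XLOC_030654 was at 15.9 and 22.7 FPKM in AROM, against 551 and 559 FPKM in WT, and was listed at 0 in the 4 columns of the other genotypes. The locus XLOC_014203 was at 5.03 and 3.48 FPKM in AROM, against 0.142 and 0.117 FPKM in WT. It was at 8.21 and 6.82 FPKM in CERM and at 9.47 and 10.57 FPKM in BRCA, so WT alone was low.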

How the results depend on the processing

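No paired analysis was possible because each column pools its libraries, and for the same reason no replicate could be left out. The values below stand in the order genes higher, then lower. A pseudocount of 0.1 FPKM gave 315 lower genes in the single-end columns, 627 lower in the paired-end ones, and 72 and 270 in both layouts. A pseudocount of 5 FPKM gave 138 and 85 single-end, 135 and 133 paired-end, 17 and 69 in both, 5 opposite, and 147 genes apart between the AROM layouts and 126 between the WT layouts. At 1.5-fold there were 719 and 621 single-end, 872 and 1058 paired-end, 192 and 511 in both, 25 opposite, and 1172 and 489 between the layouts of AROM and WT. At 3-fold there were 35 and 60 single-end, 56 and 96 paired-end, 6 and 46 in both, 5 opposite, and 133 and 130 between layouts of AROM and WT. With FPKM of at least 1 in all 4 columns there were 0 opposite genes and 107 and 75 between layouts of AROM and WT. Median-ratio and quantile scaling, no filter, and loci with several symbols moved no count by over 1.5 times; median-ratio scaling shifted the paired-end median by 0.088 on the log2 scale.

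Against the WT column of the other layout, 651 genes were lower with the paired-end AROM column. With both AROM columns 50 were higher, 94 were lower and 132 were opposite, since layout differences then enter with opposite signs. Under that choice 6 named genes reversed. The single-end AROM ratio became 0.62 for Tsr1, 0.24 for Hipk3, 0.35 for Dalrd3 and 1.90 for Rabggtb, and the paired-end one -1.13 for H2-Q6 and 5.09 for Tpt1. Of the alternatives chosen after seeing the data, leaving out small RNAs, unranked symbols and genes listed at 0 left 1 opposite gene and 105 and 70 between layouts of AROM and WT, and requiring all 4 pairings left 91 lower genes. Medians of 13 lists and families by layout changed sign against the other WT column; of these the slow-fibre genes moved furthest, to -0.44 from 0.25 single-end. Scaling or filtering changed the sign of medians near 0, such as the housekeeping one paired-end, 0.12 as deposited and -0.06 under quantile normalization. The milk, alveolar, luminal, proliferation, white adipocyte and muscle medians did not change sign in either layout under any alternative run, although the paired-end muscle median, 0.09 as deposited, was 0.00 under quantile normalization.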

Other observations

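A few single genes not described above were lower in AROM in both layouts. They were chosen after their values were seen and stand for no group. Vdr, the vitamin D receptor gene, was at 6.18 FPKM (single-end) and 3.603 FPKM (paired-end) in AROM, against 16.0 and 13.6 FPKM in WT. Crabp2, a retinoic acid-binding protein gene, was at 12.9 and 7.67 FPKM in AROM, against 33.3 and 24.6 FPKM in WT. Rspo1, which encodes an R-spondin that amplifies Wnt signals, was at 21.1 and 11.2 FPKM in AROM, against 69.3 and 61.2 FPKM in WT. Wnt5b, a Wnt ligand gene, had log2 ratios of -1.03 and -1.39. Folr1, a folate receptor gene, was at 8.90 and 6.53 FPKM in AROM, against 32.2 and 25.3 FPKM in WT. In each of these genes both AROM columns lay below both WT columns.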
